A study of Mus musculus with 3 samples.

Results

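The replication-dependent histone genes of the mouse were examined in the Ago2 HITS-clip peaks of N2A neuroblastoma cells. They were taken as the protein-coding genes of the GENCODE M21 annotation whose symbols start with Hist1h, Hist2h, Hist3h or Hist4h, which gave 67 of 21938 protein-coding genes on the primary chromosomes. Of the 67, 6 encode linker histone H1, 18 H2A, 18 H2B, 12 H3 and 13 H4, and 54 lie in the Hist1 cluster on chromosome 13, 10 in Hist2 on chromosome 3, 2 in Hist3 on chromosome 11 and 1, Hist4h4, on chromosome 6. N2A is an established mouse neuroblastoma cell line. The series holds 3 replicate libraries of a single group, untreated (basal) N2A cells, each made from cells that were crosslinked with UV light first at 400 and then repeatedly at 200 mJ/cm2. RNA bound to Argonaute was recovered with the anti-Ago2 antibody clone 2D4, sequenced, and reduced by the authors to a list of peaks for each library. With no second group, no treatment and no input or control-antibody library in the files used here, the comparisons are between strands, between stretches of the genes and between gene groups within each library. Nothing in the labels says whether the replicates were separate cultures, so the spread between them may be technical.

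Replication-dependent histone mRNAs are made in S phase to package newly copied DNA. They are the best known mRNAs of animals that normally end without a poly(A) tail. Their 3′ end is made by a cut a few bases after a conserved hairpin, the histone stem-loop, which is bound by the stem-loop binding protein SLBP, while the U7 small nuclear ribonucleoprotein pairs with the pre-mRNA downstream of it and the endonuclease CPSF73 makes the cut. Their 3′ UTRs are short, and the genes occur as many near-identical copies, both of which matter for a method that recovers short fragments of RNA. Argonaute 2 holds miRNAs and is guided by the miRNA seed to matching sites, most of which are known from 3′ UTRs.

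The stem-loop was searched for in the 100 nt after each stop codon as the 16-nt consensus of the histone stem-loop. Of the 21853 protein-coding genes with an annotated coding sequence, 69 had a match (0.316%). Among these 69 were 65 of the 67 histone genes (97%), all but Hist2h2be and Hist1h2an. In these 65 it started 22 to 59 nt after the stop codon, with a median of 31 nt. There were 8 distinct 16-nt sequences, of which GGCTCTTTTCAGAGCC was shared by 41 genes, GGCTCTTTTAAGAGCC by 9 and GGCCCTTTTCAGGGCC by 8. The following 10 genes are shown because they carry all 8 versions and had a peak over the stem-loop. The 16 nt of the stem-loop are in capitals, with 5 nt of mm10 sequence on each side, 5′ to 3′ on the strand of the gene.
Hist1h1c: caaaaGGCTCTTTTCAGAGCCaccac
Hist1h1d: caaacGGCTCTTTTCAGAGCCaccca
Hist1h4b: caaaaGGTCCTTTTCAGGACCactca
Hist1h4j: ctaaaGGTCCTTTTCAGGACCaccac
Hist1h4i: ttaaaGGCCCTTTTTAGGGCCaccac
Hist1h4a: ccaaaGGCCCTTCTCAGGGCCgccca
Hist1h4h: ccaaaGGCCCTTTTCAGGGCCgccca
Hist1h3g: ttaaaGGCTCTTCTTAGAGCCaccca
Hist1h2bl: tcaaaGGCTCTTTTAAGAGCCaccca
Hist2h2ac: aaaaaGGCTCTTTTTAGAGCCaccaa
The sequence of Hist1h1c lies at chr13:23739507-23739532 and that of Hist1h4b at chr13:23757361-23757386, both on the plus strand. The annotated gene models did not follow this end. In 16 of the 65 genes the model stopped before the end of the stem-loop, in 27 it ran 1 to 300 nt past it, in 22 it ran more than 300 nt past it, and 13 of the 67 models had no 3′ UTR. Exonic length ranged from 312 to 7425 nt with a median of 539 nt, and 62 of the 67 genes had a single exonic block.

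The files list a position, a strand and a score for each peak, and no read counts, so the read depth behind a peak is unknown. The libraries held 711377, 498071 and 829936 peaks for replicates 1, 2 and 3, with median widths of 83, 84 and 85 nt, and 98.9% to 99.7% of them carried the same score of 60, so the score was not used to rank peaks. A gene was counted as having a peak when at least 1 nt of an exon lay under a peak of its own strand. As a check of the label, 8 of 10 neuronal and neuroblastoma markers had such a peak in all 3 libraries, against 1 of 10 markers of other cells (Ptprc, the leukocyte common antigen), while Hba-a1, the haemoglobin alpha gene, and Csf1r, the macrophage growth factor receptor, had none on their strand. Over these marker lists 14.1%, 24.2% and 24.8% of the exonic bases of the neuronal genes and 4.07%, 2.67% and 7.88% of those of the other cells were covered in replicates 1, 2 and 3.

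Peaks lay on the strand of the histone mRNAs. A same-strand peak was found over 33, 37 and 35 of the 67 genes in replicates 1, 2 and 3 (35 ± 2, SD, n = 3), where 59.1%, 60.6% and 64.5% of all protein-coding genes had one. On the opposite strand the counts were 3, 8 and 8 genes (6.33 ± 2.89, SD, n = 3), against 47.6%, 38.4% and 45.1% of all protein-coding genes. The same-strand count was higher in 3 of 3 libraries, by 28.7 ± 1.53 genes (exact paired permutation test, two-sided p = 0.25, the smallest value 3 libraries allow). There were 46, 82 and 89 distinct same-strand peaks and 3, 10 and 7 opposite-strand peaks. Of these 20 opposite-strand peaks, 5 lay over an annotated exon of another gene on their own strand, and 4 were wider than 1000 nt.

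In all 3 libraries 18 of the 67 genes had a same-strand peak (26.9%, against 42.8% of all protein-coding genes), 17 had one in 2 libraries, 17 in 1 library and 15 in none (22.4%, against 20.3% of all protein-coding genes). No gene had an opposite-strand peak in all 3 libraries, where 16.6% of all protein-coding genes did, and 51 had none in any library (76.1%, against 28.1%). These shares move with the exonic length of a gene. Among the 49 histone genes of at most 1000 nt of exons, 9 had a peak in all 3 libraries (18.4%) against 3.41% of all protein-coding genes of that length. Per library the share was 42.9%, 51% and 49% against 13.9%, 16.4% and 16.6%. On the opposite strand it was 4.08%, 6.12% and 8.16% against 11.3%, 8.36% and 9.44%, with 0 of the 49 in all 3 libraries against 0.568%. Among the 18 longer ones, 9 had a peak in all 3 libraries (46.6% of longer protein-coding genes did). Per library these were 66.7%, 66.7% and 61.1% against 63.5%, 64.9% and 69.2%. On the opposite strand they were 5.56%, 27.8% and 22.2% against 51.1%, 41.4% and 48.6%, with 0 of the 18 in all 3 libraries against 18.2%. The short histone genes therefore stood above the short genes of the genome in each library, and the long ones within 10 percentage points of the long genes on their own strand. On the opposite strand the histone genes were below the genes of like length in every library. How many of the other short genes N2A cells express was not tested.

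**Figure D1:**
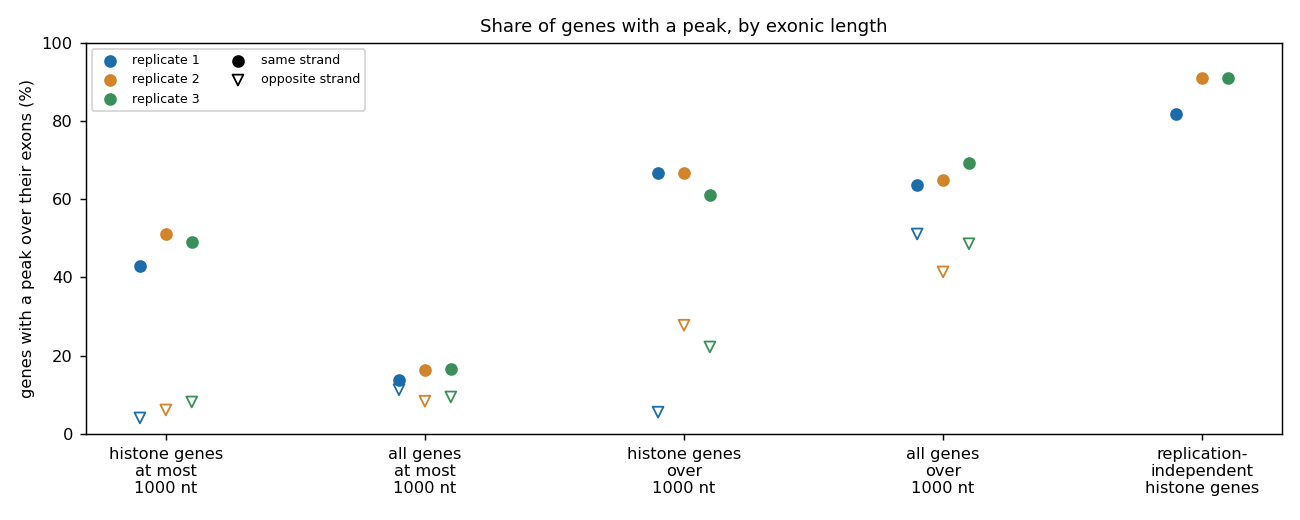
Percent of genes with at least 1 peak over their exons (vertical axis) for histone genes and all protein-coding genes of at most or over 1000 nt of exons, and for 11 replication-independent histone genes. Filled circles are same-strand and open triangles opposite-strand peaks, with 1 symbol for each replicate. Short histone genes reach 42.9% to 51% on their own strand, where short genes in general reach 13.9% to 16.6%.

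The families differed in how often their genes recurred. Linker histone H1 genes, whose products bind the DNA between nucleosomes, had a peak in all 3 libraries in 4 of 6 genes, with 5 genes marked in each library. H4 followed with 5 of 13, H2B with 6 of 18 and H2A with 3 of 18. None of the 12 H3 genes had a peak in all 3 libraries, although 6, 2 and 2 had one in replicates 1, 2 and 3. The exonic bases under peaks were 7.47%, 18.7% and 21.2% in H1, 11.37%, 11.48% and 13.2% in H4, and 5.58%, 5.11% and 1.96% in H3. H4 was thus covered evenly over the libraries, while H1 and H2A (2.42%, 12% and 12.4%) were lowest in replicate 1. H3 ran the other way, with its lowest coverage in replicate 3. In H2B the values were 3.74%, 6.23% and 6.54%. No test of the family difference was made, since the families also differ in how much of their sequence is unique, which is given below.

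**Figure D2:**
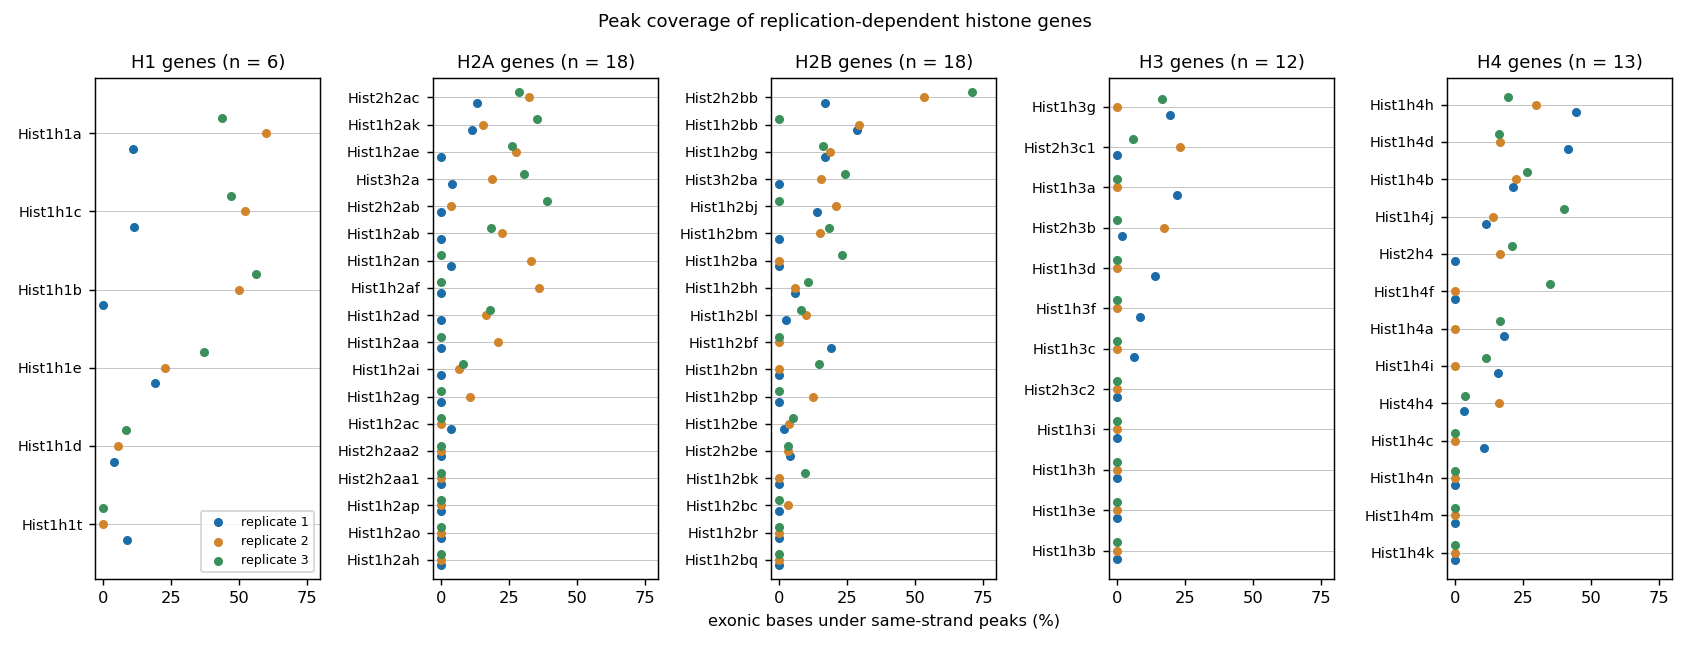
Percent of exonic bases under same-strand peaks (horizontal axis) for each of the 67 genes, by family, with 1 point for each replicate library. Hist1h1a, Hist1h1b and Hist1h1c lie between 43.7% and 59.9% in replicates 2 and 3, and 5 H3 genes lie at 0 in all 3.

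The 10 genes with bases covered in all 3 libraries were, in order, Hist1h1d (156 nt), Hist1h4d (126 nt), Hist1h1c (123 nt), Hist1h4h (83 nt), Hist1h4b (81 nt), Hist1h2bg (69 nt), Hist2h2ac (68 nt), Hist1h2bh (64 nt), Hist1h1a (45 nt) and Hist1h4j (7 nt). Together they held 822 nt in 15 stretches, out of 66319 exonic nt of all 67 genes. Without 30 nt on each side of every peak, a flank described below, 139 nt remained, so the order of these genes rests on the peaks as deposited. The 822 nt were 21.5% of the 3825 nt covered in replicate 1, 11.8% of the 6958 nt in replicate 2 and 11.3% of the 7272 nt in replicate 3. Of the same-strand peaks of a library, 45.6 ± 11.1% (SD over the 6 ordered pairs of libraries) met a peak of another library, against 42.4 ± 15.2% for the exonic peaks of all genes.

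Among the H1 genes, Hist1h1c (chr13:23738808-23740367) had 2, 10 and 8 peaks in replicates 1, 2 and 3, over 11.2%, 52.3% and 46.9% of its exonic bases. Replicates 2 and 3 therefore lay far above replicate 1. Its peaks in replicate 1 sat at the start of the coding sequence (chr13:23738832-23738915) and over the end of the coding sequence up to the last base of the stem-loop (chr13:23739438-23739527), and both places were also under peaks in the other libraries. Hist1h1d (chr13:23553262-23560686), the longest model, had 3, 5 and 8 peaks over 3.91%, 5.59% and 8.47% of its bases. Hist1h1a, a model of 741 nt that is nearly all coding sequence, had 1, 5 and 5 peaks over 10.8%, 59.9% and 43.7%. Hist1h1e had 4, 4 and 9 peaks over 19.2%, 22.8% and 37.1%, with no base shared by all 3 libraries.

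Histone H4 is the most conserved of the core histones, and the 13 genes here had 12 distinct coding sequences for 1 protein. Hist1h4b (chr13:23757013-23757409) had a single peak in each library, at chr13:23757326-23757421, chr13:23757319-23757406 and chr13:23757306-23757417, so that 21.2%, 22.2% and 26.2% of its exonic bases were covered. The 3 peaks lay over the end of the gene, and their shared 81 nt held the stem-loop. Hist1h4d (chr13:23581598-23582735) had 2 peaks in each library over 41.7%, 16.3% and 16.1% of its bases, 1 of them at the start of the coding sequence and 1 with its midpoint past the stem-loop. Hist1h4h had 3, 1 and 1 peaks over 44.5%, 29.6% and 19.4%, and its shared 83 nt ran over the start codon into the coding sequence. Hist1h4j had 1, 1 and 3 peaks over 11.2%, 13.8% and 40.2%. Hist1h4h was thus most covered in replicate 1 and Hist1h4j in replicate 3. Hist4h4, the only gene of its cluster, had 1, 5 and 1 peaks over 3.11%, 16.2% and 3.35%.

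H2A and H2B form the dimers that flank the central H3-H4 tetramer of the nucleosome. Hist2h2ac had 1, 3 and 2 peaks over 13.1%, 32.3% and 28.5% of its bases, and its shared 68 nt lay at the 5′ end of the model. Hist1h2bg had 1, 1 and 2 peaks over 16.8%, 18.6% and 16.2%, with its 69 shared nt also at the 5′ end. Hist1h2bh had 1, 1 and 2 peaks over 5.72%, 5.84% and 10.5%. The values of Hist1h2bg differed little between the libraries, in contrast to Hist2h2bb, where 1, 2 and 4 peaks covered 16.8%, 53.3% and 71.1% with no base in common. Hist1h2be had 1, 2 and 3 peaks, but its model overlaps Hist1h1e on the same strand, so that 1 of its peaks in replicate 2 and 2 in replicate 3 were counted for both genes and cannot be assigned to either. Hist2h2be, Hist1h2ak, Hist3h2a and Hist1h2bl had at least 1 peak in each library without a shared base.

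Peaks were shorter in reach than these counts let appear, because a deposited peak seems to hold a flank of 30 nt on each side: the narrowest is 79 nt and some start at position -30 of a chromosome sequence. The peak without these 30 nt on each side is called its central part in what follows. For positions only peaks of at most 1000 nt were used, while the coverage of unique and repeated bases used peaks of any width. Where the ends of central parts are given, they rest on this flank, and on the deposited ends they lie 30 nt further out.

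In replicates 1 and 2, more central parts ended just past the stem-loop than in any other bin around it, and in replicate 3 another bin held as many. The central part of 22 same-strand peaks, from 17 genes, lay over the stem-loop, 10 in replicate 1, 9 in replicate 2 and 3 in replicate 3. Counted from the last base of the stem-loop, the last base of these central parts lay 5 nt before to 10 nt after it in 20 of the 22 (90.9%, Wilson 95% interval 72.2% to 97.5%, for counting error only). The median was 5 nt after the stem-loop, 7 of the 22 ended exactly there, and 15 of the 22 ended 4 to 8 nt after it. The first bases of the 22 lay 63 to 19 nt before the end of the stem-loop. The genes belonged to every family: the median end was 5 nt in H1 (3 peaks), H2A (4 peaks), H3 (3 peaks) and H4 (10 peaks), and 9.5 nt in the 2 peaks of H2B. The peaks lay over 8 versions of the stem-loop, 8 of the 22 over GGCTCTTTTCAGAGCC and 5 over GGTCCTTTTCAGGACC. The exceptions were Hist1h2bc in replicate 2, whose central part ended 12 nt after the stem-loop, and Hist1h4d in replicate 1, whose peak ran on to 292 nt. This range of ends was chosen after the ends were seen. The Wilson interval counts the 22 peaks as independent, although they came from 17 genes that share sequence, so it holds only under that assumption.

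All same-strand central parts near the stem-loop were then counted by their last base in bins of 10 nt. The bin from 1 to 10 nt after the stem-loop held 16 ends, 8, 5 and 3 in replicates 1, 2 and 3. The other bins from 99 nt before to 100 nt after it held 0 to 5 ends each over all libraries, and at most 2, 3 and 3 in replicates 1, 2 and 3, so that replicate 3 alone did not set the bin apart. On the opposite strand no central part ended in that bin. With deposited peaks and a minimum overlap of 1 nt, 15, 11 and 12 of the 65 stem-loops were under a same-strand peak and 1, 3 and 5 under an opposite-strand peak. Hist1h1c and Hist1h4b were marked in all 3 libraries, and Hist2h2ac, Hist3h2a, Hist1h4j, Hist1h4i, Hist1h3g, Hist1h1d, Hist1h2ae and Hist1h4a in 2. In Hist1h1c the central part itself lay over the stem-loop in replicate 2 only, so that Hist1h4b was the single gene with a central part there in every library.

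**Figure D3:**
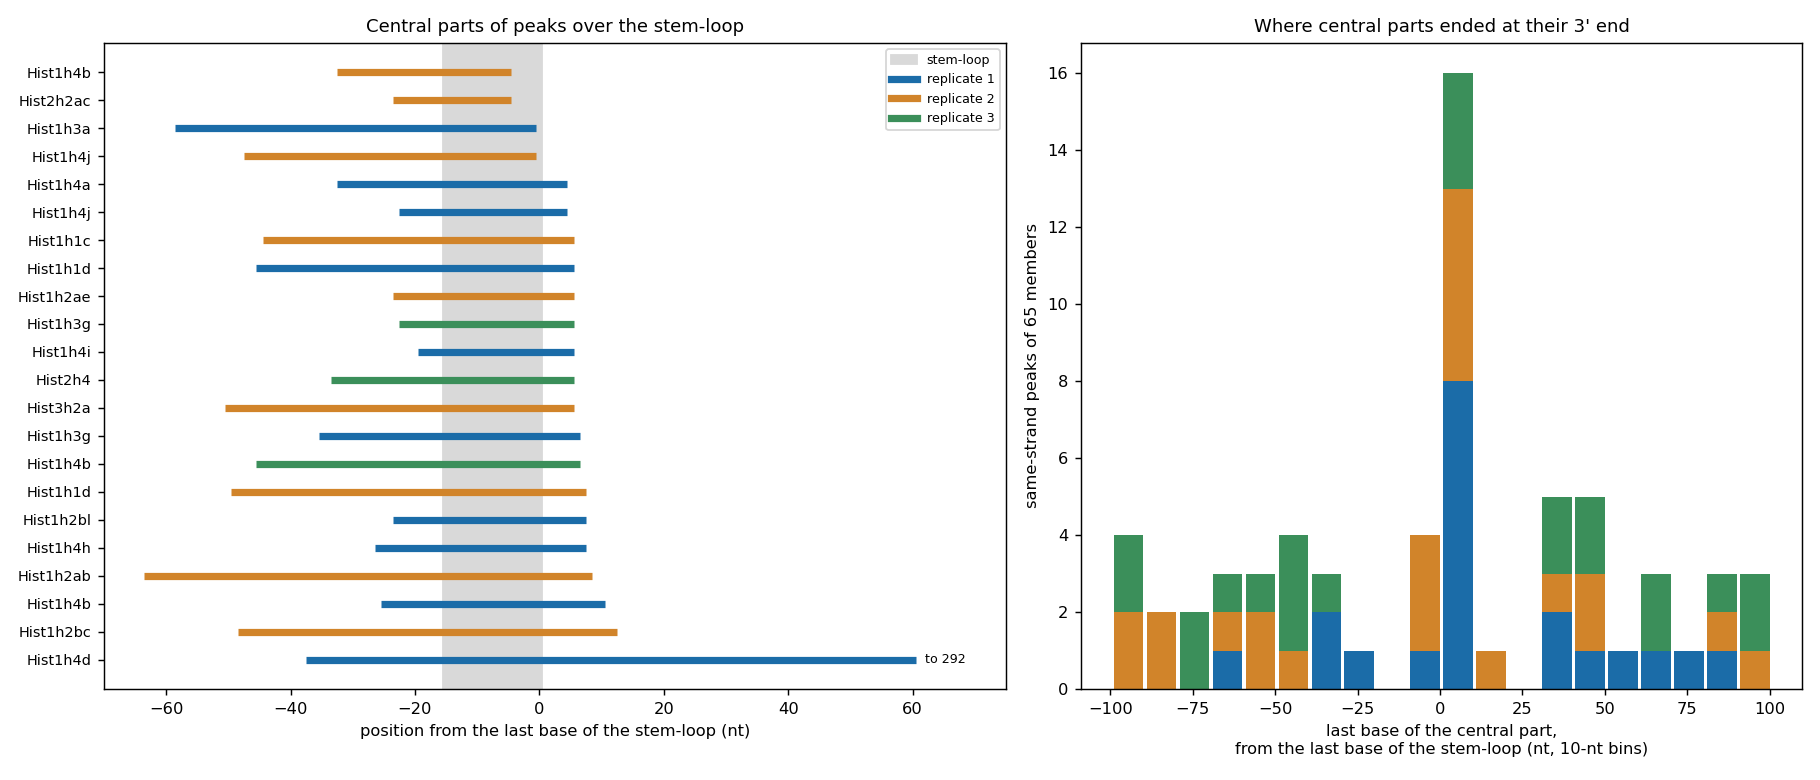
Left, the central part of each of the 22 same-strand peaks over a stem-loop (grey), by distance in nt from the last base of the stem-loop and coloured by replicate. Right, number of same-strand central parts of 65 genes by the position of their last base, in bins of 10 nt, with the 16 ends from 1 to 10 nt after the stem-loop as the tallest bar.

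The stretch from the stop codon to 5 nt past the stem-loop was under central parts in 12%, 11.4% and 4.60% of its bases (9.30 ± 4.08, SD, n = 3). The bases up to the stop codon were covered to 1.85%, 6.26% and 7.18%, and annotated exon past the stem-loop to 2.31%, 2.41% and 2.93%. Of these 3 stretches, the one up to the stem-loop was the densest in replicates 1 and 2, while in replicate 3 the bases before the stop codon were denser. The opposite strand was covered to 0.546%, 0.144% and 0% from the stop codon to 5 nt past the stem-loop. Unique sequence, as defined below, made up 71.9% of the bases from the stop codon to the end of the stem-loop, 45.2% of those before the stop codon and 80.4% of annotated exon past the stem-loop. The stretch with more unique sequence was thus the more covered before and after the stop codon in replicates 1 and 2 but not in replicate 3, and past the stem-loop more unique sequence came with lower coverage than between stop codon and stem-loop in every library. The part of unique sequence in these differences was not tested.

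Some peaks lay past the processed end, where an mRNA cut after the stem-loop would have no sequence. Of the 22 genes whose model ran more than 300 nt past the stem-loop, 10, 7 and 9 had a peak midpoint there in replicates 1, 2 and 3, and 15 had 1 in at least 1 library. Hist1h1e and Hist1h4d had them in all 3 libraries, with 2, 2 and 4 and with 1, 1 and 1 peaks. Of those of Hist1h1e, 2, 1 and 2 were not shared with the model of Hist1h2be. Hist1h1c had none past the stem-loop in replicate 1, but 6 and 4 in replicates 2 and 3, the farthest with its midpoint 794 nt after the stem-loop. Hist2h3c1 followed the same order, with 0, 5 and 1. For the 27 genes with 1 to 300 nt of model past the stem-loop, 1, 1 and 3 had such a peak.

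The other dense position was the start codon. Around it the central parts covered 1.97%, 16.4% and 12% of the 50 nt before the first coding base and 5.67%, 17.3% and 13.6% of the first 50 coding bases, averaged over all 67 genes. Farther upstream, 100 to 51 nt before it, 0.657%, 0.418% and 0.119% were covered, at 101 to 150 nt into the coding sequence 0%, 1.52% and 5.28%, and at 151 to 200 nt 0.985%, 6.27% and 4.69%. The highest point lay at base 17 of the coding sequence in replicate 1 (6 genes), 14 nt before it in replicate 2 (18 genes, 26.9%) and 1 nt before it in replicate 3 (13 genes, 19.4%). Replicate 1 thus had the fewest genes covered at the start codon and the most central parts over the stem-loop. The share of unique sequence fell along the same stretch, from 84.7% in the 50 nt before the start codon to 57.5% in the first 50 coding bases, 35.3% in the next 50, 23.8% at 101 to 150 nt and 18.3% at 151 to 200 nt. Between these last stretches coverage rose in replicates 1 and 2 while the unique share fell, and the part of unique sequence in the pattern was not tested.

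**Figure D4:**
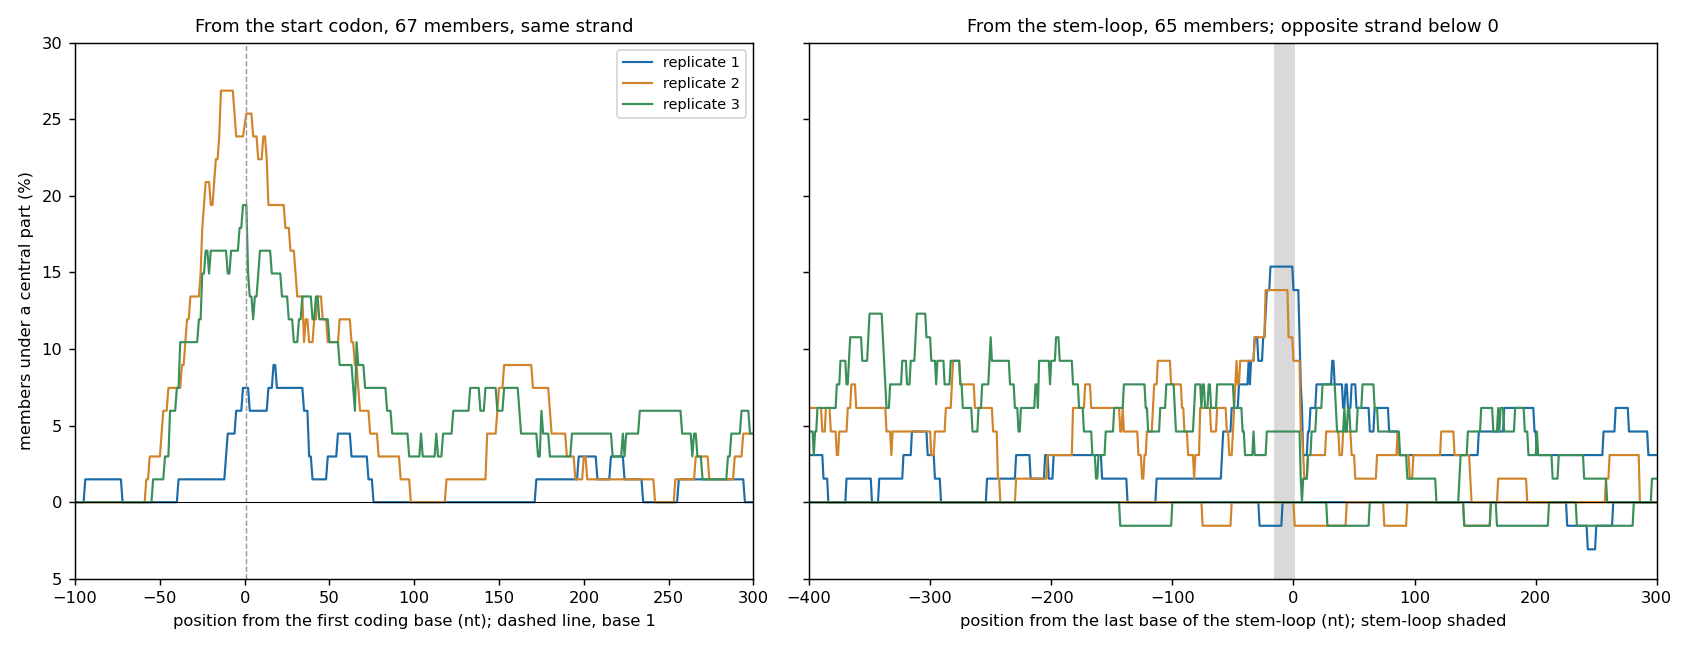
Percent of genes under a central part (vertical axis) at each position from the first coding base (left, 67 genes) and from the last base of the stem-loop (right, 65 genes, stem-loop in grey, opposite-strand coverage drawn below 0), with 1 line for each replicate. Replicates 2 and 3 rise to 26.9% and 19.4% of the genes near the start codon, and replicates 1 and 2 rise over the stem-loop and drop within 10 nt after it.

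By family, a central part over the first 50 coding bases was found in 1, 5 and 3 of the 6 H1 genes, in 1, 7 and 5 of the 18 H2A genes, in 4, 5 and 5 of the 18 H2B genes, in 0, 1 and 0 of the 12 H3 genes and in 2, 3 and 6 of the 13 H4 genes. In all 3 libraries it was found in Hist1h1c, Hist2h2ac, Hist1h2bg, Hist1h4d and Hist1h4h. Each of these 5 genes had a stretch shared by all 3 libraries at or near the start codon, and Hist1h1c and Hist1h4d had others at the end of the coding sequence or in the 3′ UTR. H3 was again the family with the fewest. Over all 67 genes the share with such a central part was 11.9%, 31.3% and 28.4%, against 2.21%, 5.81% and 6.93% of the 21582 other protein-coding genes with at least 200 coding bases, silent genes included and coding bases joined over introns. At 151 to 200 nt into the coding sequence the shares were 2.99%, 8.96% and 8.96% of the histone genes and 2.87%, 7.43% and 9.87% of the others. Of those others, 1726 had at most 1000 exonic nt. Among these short genes the shares were 0.985%, 1.91% and 1.68% over the first 50 coding bases. At 151 to 200 nt they were 0.985%, 2.32% and 2.14%, so the histone genes stood above the short genes at both places. No test was made of these differences.

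By transcript part, shares were taken over 46, 83 and 91 pairs of a gene and a same-strand peak, so that a peak shared by Hist1h1e and Hist1h2be counts once in each gene. Of these pairs, 46.7 ± 9.09% had the midpoint of the peak in coding sequence, 36.7 ± 9.76% in the 3′ UTR and 6.94 ± 4.95% in the 5′ UTR (SD, n = 3), and 8.92 ± 3.67% outside the annotated model. Coding sequence made up 43.2% of the annotated bases of these parts, 3′ UTR 49.3% and 5′ UTR 7.53%. Replicate 1 had the higher share in the 3′ UTR (47.8%, against 37.0% in coding sequence), while replicates 2 (32.5% against 48.2%) and 3 (29.7% against 54.9%) had the higher share in coding sequence. Since the annotated 3′ UTRs run past the stem-loop in many genes, the 3′ UTR share mixes peaks before and after the processed end.

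Coverage was also set against how often the sequence recurs in the genome. A base was called unique when the 30-nt window centred on it occurs once in the 21 nuclear chromosomes of mm10, on either strand, and repeated otherwise. Of the exonic bases of the 67 genes, 41659 were unique and 24660 repeated. Central parts covered 3.81%, 7.68% and 7.70% of the unique and 0.308%, 0.438% and 0.620% of the repeated bases in replicates 1, 2 and 3. The difference was 5.94 ± 2.11 percentage points (SD, n = 3), in the same direction in 3 of 3 libraries (exact paired permutation test, two-sided p = 0.25, the smallest possible). How reads with several equally good positions were treated is not given in the sources used here.

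Genes followed the same division. The 15 genes without a same-strand peak in any library were Hist2h3c2, Hist2h2aa2, Hist2h2aa1, Hist1h3h, Hist1h4k, Hist1h3i, Hist1h2bq, Hist1h2ao, Hist1h4m, Hist1h4n, Hist1h2ap, Hist1h2br, Hist1h2ah, Hist1h3e and Hist1h3b. For 13 of these 15 less than 30% of the exonic bases were unique, against 23 of all 67 genes. In the 23 genes of lowest uniqueness (0 to 29.2%), 1 had a peak in all 3 libraries and 13 in none. In the 23 of highest uniqueness (63.8% to 100%), 12 had a peak in all 3 and 0 in none, and the 21 between them had 5 and 2. The number of libraries with a peak rose with the unique share across the 67 genes (Spearman's rho 0.623), with a higher coefficient than for exonic length (rho 0.210), though genes share libraries and sequence and are not independent. Unique share and length also moved together (rho 0.503), with median exonic lengths of 461, 534 and 1249 nt in the classes of low, middle and high uniqueness, so the coefficients do not separate them. In 5 genes no base was unique, so the lack of a peak there could not be read as a lack of Argonaute.

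The families also differed within unique bases alone, again with no test made. Of the unique bases, 3.04%, 10.5% and 11% were under central parts in H1, 1.60%, 9.02% and 10.4% in H2A, 2.31%, 4.42% and 4.47% in H2B, 4.30%, 3.95% and 1.65% in H3, and 8.97%, 8.77% and 8.16% in H4. H4 was the highest in replicate 1, H1 in replicates 2 and 3, and H3 the lowest in replicates 2 and 3. The H4 values stayed within a percentage point of each other over the libraries.

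**Figure D5:**
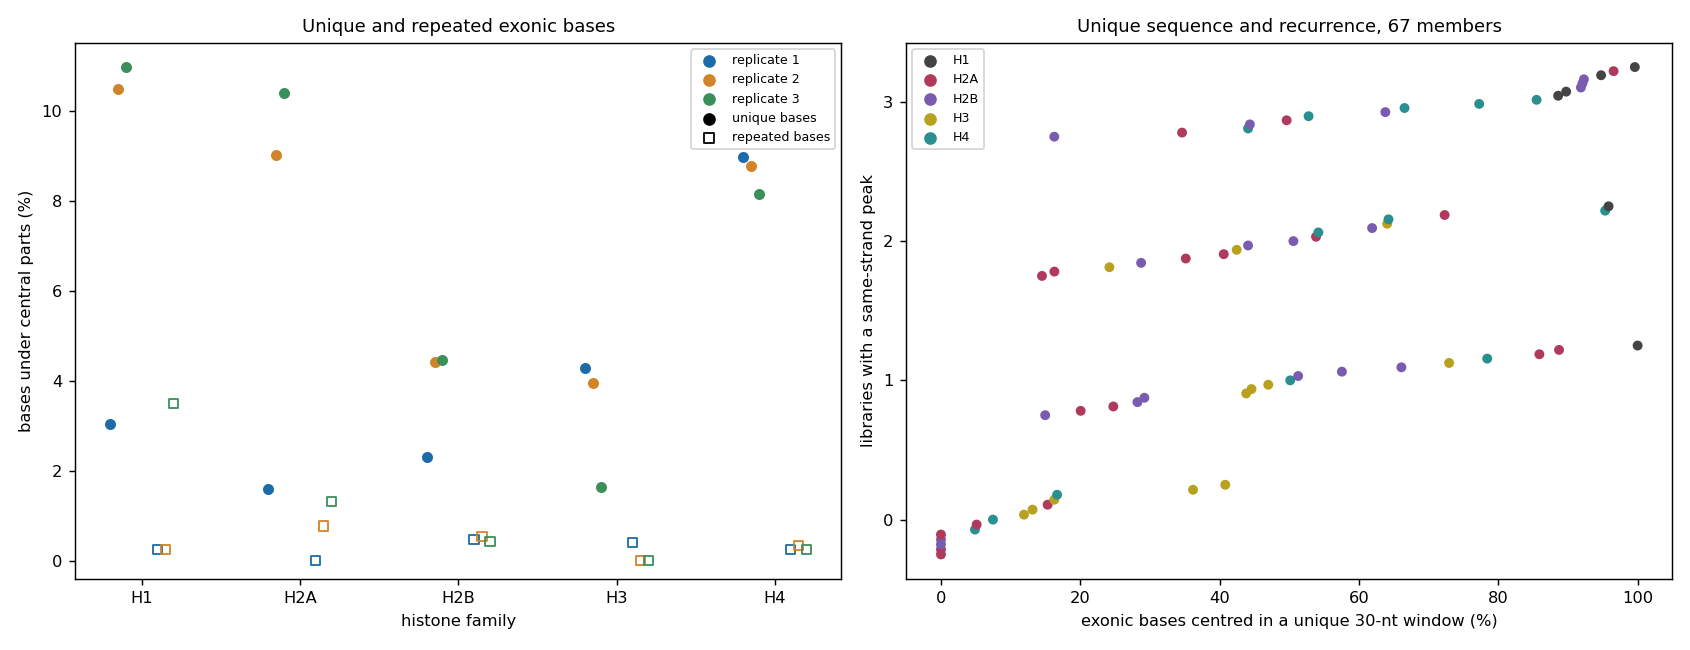
Left, percent of unique (circles) and repeated (open squares) exonic bases under central parts, by family and replicate, with the circles above the squares in every family and library. Right, for each of the 67 genes, the number of libraries with a same-strand peak (points spread vertically within each level for display) against the percent of its exonic bases that are unique.

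The replication-independent histone genes, which encode histone variants and mostly give polyadenylated mRNAs, were used as a comparison list of 11 genes. Of these, 81.8%, 90.9% and 90.9% had a same-strand peak in replicates 1, 2 and 3, against 49.3%, 55.2% and 52.2% of the replication-dependent genes. The replication-dependent share was lower by 35.6 ± 3.05 percentage points (SD, n = 3; exact paired permutation test, two-sided p = 0.25, the smallest possible). Peaks in all 3 libraries were found over 9 of the 11. H1f0, a linker histone of differentiated cells, had 4, 14 and 18 peaks over 16.9%, 82.7% and 66.2% of its exonic bases, and H2afx, whose product is phosphorylated at DNA breaks, had 2, 9 and 9 over 14.6%, 68.9% and 57.2%. H3f3b, which encodes H3.3, had 4, 9 and 3 peaks over 12.2%, 40.7% and 11.7%. These are longer and more unique genes, with a median of 2055 exonic nt and 92.1% unique bases, and these differences cannot be told apart from the mode of expression here. H2afx also has a stem-loop, 47 nt after its stop codon, and a central part over it in replicate 3 only, which ended 62 nt after the stem-loop.

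The 18 genes for histone mRNA processing and turnover all had a same-strand peak in at least 1 library, and 14 of them in all 3. Of all protein-coding genes 42.8% had one in all 3, and of those over 1000 exonic nt 46.6%. On the opposite strand 8 of the 18 had a peak in all 3 libraries, against 16.6% and 18.2%. Slbp, which encodes the stem-loop binding protein, had 5, 8 and 22 peaks over 7.13%, 17.1% and 33.2% of its exonic bases. Npat, the activator of histone transcription at histone locus bodies, had 7, 31 and 29, and Lsm11, a subunit of the U7 particle, 2, 22 and 19. Eri1, the exonuclease that trims the end of the stem-loop, had 7, 27 and 22. Cpsf3, the gene for the endonuclease itself, had 0, 10 and 5 peaks, and Lsm10, Zfp473 and Ncbp2 likewise lacked a peak in 1 library. The median exonic length of the list was 6162 nt, against 539 nt in the histone genes.

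Seed matches were searched for in the exons of the histone genes for 8 miRNAs whose mature sequence was at hand from RefSeq. The mature sequences of the miRNAs with the most matches are given with the seed, bases 2 to 8, in capitals.
miR-15a-5p: uAGCAGCAcauaaugguuugug
miR-9-5p: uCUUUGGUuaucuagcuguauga
The match TGCTGCT to the miR-15a-5p seed occurred 38 times in 37 of the 67 genes, 33 times in coding sequence. Among genes of at most 1000 exonic nt it was present in 27 of 49 histone genes (55.1%) and in 19.9% of the 1889 others. Of the 37 matches in genes with a stem-loop, 32 lay in H2A and H2B genes, starting 82 to 133 nt before the last base of the stem-loop, and since these genes share sequence they are not separate occurrences. Of the 38 matches, 5 lay under a peak in at least 1 library, in Hist2h2bb (replicates 2 and 3), Hist1h2af, Hist1h2ae, Hist1h2ad and Hist1h1a. The match ACCAAAG to the miR-9-5p seed occurred 14 times in 12 genes, and in 14.3% of short histone genes against 11.6% of the other short genes. When the bases up to 5 nt past the stem-loop were added to the models that end before it, there were 16 matches in the genes with a stem-loop, and 9 of these ended on the first base of the stem-loop. The sequence ahead of the stem-loop, seen as ccaaaG in Hist1h4a and Hist1h4h above, thus holds most of them, and they come with the flank of the hairpin. Of the 14, 6 lay under a peak in at least 1 library, in Hist3h2a (replicates 2 and 3), Hist1h4h, Hist1h3f, Hist1h4d, Hist1h4a and Hist1h3a (replicate 1). None of the 822 nt covered in all 3 libraries held a match to any of the 8 seeds, where the 78 matches in all 66319 exonic nt would amount to 0.967 in a stretch of that length, so the count of 0 is near that share. A match is a run of letters and not a site shown to be used, and these libraries hold no miRNA paired to a peak.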

How the data were processed

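Ago2 HITS-clip libraries of 3 basal N2A samples were analysed from a single deposited table that lists position, strand, score and library of each peak. Per the labels, reads were mapped to mm10, and the submitters' processing notes name FastQC, cutadapt and STAR. The peak caller, its threshold and the treatment of multiply mapped reads are not given in the sources used here. The deposited score, 54.6 to 60, was not used to rank peaks, and read depth is unknown. Genes and transcript parts came from GENCODE M21 (GRCm38). A gene had a peak where at least 1 exonic nt lay under a peak of its strand, and the part was that of the midpoint (3′ UTR before coding sequence before 5′ UTR). Comparisons over libraries used the exact paired sign-flip permutation test. Windows of 30 nt were counted over the genome on both strands. Counts and tests were made in Python 3.11.15 with pandas 2.3.3, numpy 2.4.6, numba 0.67.0 and scipy 1.17.1 and plots with matplotlib 3.10.9, and the scripts were tested on simulated peaks. The genes given in full were those with a peak in all 3 libraries, by bases covered in all of them. The histone genes, comparison lists and marker lists were chosen with earlier results of these data known. The stretches around the start codon and the ends at the stem-loop were described after the data were seen. The closing section gives the alternatives. The miR-124-3p sequence was not used here, and 1 listed marker of other cells is not reported here.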

Additional observations from a re-analysis of the deposited data

How the results depend on the processing

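No paired analysis was possible because all 3 replicates belong to 1 group and their numbers pair no samples across groups. The permutation tests pair measures within a library. Across the alternatives, the higher count on the same strand, the lower share than in replication-independent histone genes and the higher coverage of unique bases kept their direction, the first at 26.7 to 29.7 genes. Genes with a same-strand peak in all libraries numbered 13 to 19 with all libraries required, and 35 with at least 2 libraries. Per library they averaged 30.7 with the midpoint in an exon and 29.7 with peaks of 86 to 200 nt. Bases covered in all libraries fell to 139 with peaks trimmed by 30 nt, 547 with peaks of 86 to 200 nt and 533 with a score of 60. Genes with a peak over the stem-loop in all libraries, 2 in the report, were 1 under each of these 3 settings. Genes with an opposite-strand peak in all libraries were 1 over the whole gene span and 3 with at least 2 libraries. On the deposited ends, the share of peaks over the stem-loop ending 5 nt before to 10 nt after it was 7.5%, which follows from the flank of 30 nt. Leaving out 1 library gave 21 to 28 genes with a same-strand peak in the remaining libraries (28 without replicate 1), 0 to 2 on the opposite strand (2 without replicate 1, 1 without replicate 3), 4 to 5 with a peak over the stem-loop, and 1253 to 2984 shared nt, with 2984 without replicate 1. Requiring fewer libraries raises these counts by construction. With models extended to the stem-loop, an alternative added after the data were seen, 18 genes again had a peak in all libraries. The number of peaks, with no read counts behind them, limits the precision.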

Other observations

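The 3 histone genes of these clusters annotated as pseudogenes were not among the 67 genes. Hist3h2bb-ps and Hist1h2aj had 0 same-strand peaks in each library, and Hist1h2al had 0, 1 and 1 in replicates 1, 2 and 3, with 0 on the opposite strand in all 3 of them. The stem-loop consensus was also met within 100 nt after the stop codon of Nemp1, a nuclear envelope gene, Pla2g7 and H2bfm. Nemp1 had a central part over it in replicate 2 only, which ended 6 nt after the match, and the other two had none.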
